A study of Homo sapiens with 9 samples.

Results

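The 37 genes carried by the mitochondrial genome were described in TCam-2 cells, a human seminoma line, with and without activation of the ESX1 gene. They are all rows of the deposited tables whose symbol starts with MT-, and they were 37 of the 63856 genes listed. All 37 lie on the mitochondrial chromosome, chrM, of GRCh38. There are 2 genes for ribosomal RNA (rRNA), 13 for messenger RNA (mRNA) and 22 for transfer RNA (tRNA).

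Total RNA of 9 cultures was sequenced, with 3 libraries in each of 3 groups. The WT group was TCam-2 without modification. The negative control (NC) had received a vector with nonspecific gRNAs, and the ESX1 group had received gRNAs that direct dCas9-VPR, a gene activator, to ESX1. Transfected cells were selected with puromycin and induced with doxycycline, an antibiotic that is also known to inhibit translation on mitochondrial ribosomes. Only a part of the cells carried the fluorescent marker of the vector after selection, so each transfected library mixes cells with and without it. Whether WT cultures were given puromycin, doxycycline or the transfection reagent is not given in the sources used here. A difference of NC or ESX1 from WT therefore cannot be told apart from the handling of the transfected cells. ESX1 against NC is the comparison in which the gRNA target differs. The sources describe the dCas9-VPR vector for the ESX1 transfection and do not state outright whether NC received it too. A difference between ESX1 and NC can therefore not be credited to the gRNA target alone. In bulk RNA, a change in all cells, a change in some cells and a change in the number of mitochondrial genomes per cell cannot be told apart either.

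Total counts per library ranged from 5212804 to 10644408, and the third ESX1 library was the shallowest. ESX1 itself had 31.4 to 57.0 normalized CPM in its own group and 2.89 to 4.08 in the 6 control libraries. Normalized CPM are counts scaled to a common library total, with the library sizes corrected by TMM. The 10 seminoma markers examined, POU5F1, NANOG, SOX17 and TFAP2C among them, were detected in all 9 libraries. Their level moved with the groups, however. Summed over the 10 genes it was 4035 to 4941 normalized CPM in WT, 3019 to 3218 in NC and 1682 to 2038 in ESX1. At an adjusted p below 0.05 (edgeR), 9 were lower in ESX1 than in WT, 8 lower in ESX1 than in NC and 8 lower in NC than in WT, with 0 higher. NANOG, for example, had a log2 fold change of -2.03 in ESX1 against WT and -1.26 in ESX1 against NC. SOX2, listed as a marker of embryonal carcinoma that seminoma lacks, went the other way at low levels. It had 1.88 to 5.46 normalized CPM in WT, 6.74 to 11.8 in NC and 5.48 to 10.2 in ESX1. Its log2 fold change was 1.23 in NC against WT (adjusted p = 0.0222, edgeR) and 0.88 in ESX1 against WT (adjusted p = 0.0751, edgeR). The part of these marker shifts in the mitochondrial values was not tested. Rows of cytosolic rRNA took 0.00239% to 0.00385% of the counts. The libraries had been depleted of rRNA with a kit designed against the cytosolic rRNAs. Read pairs that mapped to several places were not counted, so this low share is not a measure of the depletion.

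Human mitochondrial DNA is read from both strands as long precursor RNAs. The tRNAs lie between most of the other genes, and their excision releases the rRNAs and mRNAs. The heavy-strand transcription gives both rRNAs, 12 mRNAs and 14 tRNAs, and the light-strand transcription gives MT-ND6 and 8 tRNAs. The mRNAs encode core subunits of the respiratory chain and of ATP synthase. All other proteins of these complexes, and all proteins that transcribe, process and translate mitochondrial RNA, are made from nuclear genes.

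Gene length and overlap are given first because of the rules of the counting. The read pairs were long, and a pair that touched 2 genes, or that mapped to several places, was not assigned to either. The tRNA genes whose counts later prove to change are shown here with the anticodon in capitals, 5′ to 3′ as transcribed. They lie at chrM:5761-5826 (MT-TC, minus strand), chrM:5657-5729 (MT-TN, minus strand) and chrM:15956-16023 (MT-TP, minus strand).
MT-TC: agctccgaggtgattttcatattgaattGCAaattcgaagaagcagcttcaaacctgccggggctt
MT-TN: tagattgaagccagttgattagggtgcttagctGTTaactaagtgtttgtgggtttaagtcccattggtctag
MT-TP: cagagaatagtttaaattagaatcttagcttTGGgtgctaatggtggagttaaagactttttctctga
They carry cysteine, asparagine and proline, and are 66, 73 and 68 bases long.

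Among the mRNA genes, 2 pairs overlap over several bases, and each of these pairs is carried by a single RNA. MT-ATP6 and MT-CO3 also share the base at chrM:9207. MT-ATP8 and MT-ATP6 share 46 bases at chrM:8527-8572 (plus strand), printed here with the start codon of MT-ATP6 in capitals.
MT-ATP8/MT-ATP6: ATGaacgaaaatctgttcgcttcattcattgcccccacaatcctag
MT-ND4L and MT-ND4 share the 7 bases in capitals, shown with 10 bases on either side at chrM:10750-10776 (plus strand).
MT-ND4L/MT-ND4: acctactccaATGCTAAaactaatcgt
Read pairs that cross these stretches, or the base shared by MT-ATP6 and MT-CO3, went uncounted. The level of MT-ATP8, which is only 207 bases long, is therefore a lower limit.

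Mitochondrial genes took 18%, 17.0% and 18.3% of the counts in the WT libraries, 15.3%, 14.5% and 14.5% in NC, and 19.9%, 19.2% and 19.2% in ESX1. The 3 groups did not overlap, with NC lowest and ESX1 highest. These are shares of raw counts, without the TMM correction. The TMM factors were 0.9024 to 0.9491 in WT, 1.054 to 1.071 in NC and 0.9918 to 1.044 in ESX1. On the corrected scale, log2 fold changes in ESX1 against WT were -0.10 for MT-RNR2 and 0.38 for MT-RNR1. The separation of ESX1 from WT is therefore shown for raw shares only. The exact 95% binomial interval of a share reached at most 0.034 percentage points to either side and covers counting error only. The share was 3.07 points lower in NC than in WT, 1.64 points higher in ESX1 than in WT and 4.71 points higher in ESX1 than in NC. Each of these comparisons gave the smallest two-sided exact permutation p that 3 against 3 libraries allow, 0.1. ESX1 against the 6 control libraries gave a difference of 3.18 points (exact permutation test, two-sided, p = 0.0238). After Benjamini-Hochberg adjustment over the 40 tests of 8 such measures in 5 contrasts, the adjusted exact permutation p was 0.182, so none of the 40 passed.

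**Figure D1:**
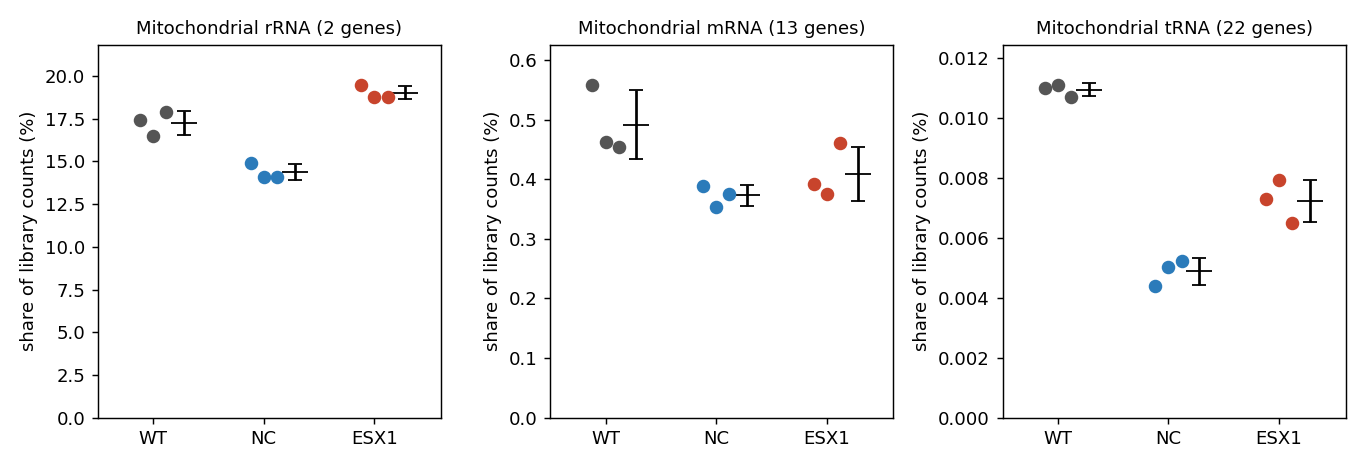
Share of each library's counts (%, linear axes from 0) on mitochondrial rRNA, mRNA and tRNA genes in WT, NC and ESX1. Points are libraries, and bars beside them are the mean ± SD (n = 3). The rRNA share was highest in ESX1, while the mRNA and tRNA shares were highest in WT, except that the third ESX1 library (0.461% mRNA) lay among the WT libraries.

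The rRNAs decided these shares, because they held 96.8% to 98.0% of all mitochondrial counts. MT-RNR2 and MT-RNR1 were ranked 1 and 2 among all genes by total count. The rRNA share was 17.4%, 16.5% and 17.9% in WT, 14.9%, 14.1% and 14.1% in NC, and 19.5%, 18.8% and 18.8% in ESX1. The mRNA share was 0.559%, 0.462% and 0.455% in WT, 0.389%, 0.354% and 0.376% in NC, and 0.393%, 0.375% and 0.461% in ESX1. The mRNA share was lower in every NC library than in every WT library, and 2 of the 3 ESX1 libraries were also below WT. Over both transfected groups it was 0.101 points below WT (exact permutation test, two-sided, p = 0.0238, adjusted p = 0.182). The tRNA share was 0.0110%, 0.0111% and 0.0107% in WT, 0.00438%, 0.00502% and 0.00522% in NC, and 0.00728%, 0.00791% and 0.0065% in ESX1. Its groups did not overlap either, and their order was WT, ESX1, NC. The tRNA share of both transfected groups was 0.00489 points below WT (exact permutation test, two-sided, p = 0.0119, the smallest that 6 against 3 can give, adjusted p = 0.182).

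The ratio of rRNA to mRNA was highest in the ESX1 libraries. There were 49.6, 50.1 and 40.7 rRNA counts for each mRNA count in ESX1, against 38.2, 39.8 and 37.5 in NC and 31.2, 35.8 and 39.3 in WT. Every ESX1 library lay above all 6 control libraries, while NC and WT overlapped. On the log2 scale the ratio was 0.339 higher in ESX1 than in the controls together (exact permutation test over libraries, two-sided, p = 0.0119, the smallest possible, adjusted p = 0.182). The difference was 0.402 against WT and 0.277 against NC (both exact permutation p = 0.1, the smallest possible). NC and WT differed by 0.125 (exact permutation p = 0.3). The third ESX1 library, with the lowest ratio of its group, exceeded the highest control library by 40.7 against 39.8.

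**Figure D2:**
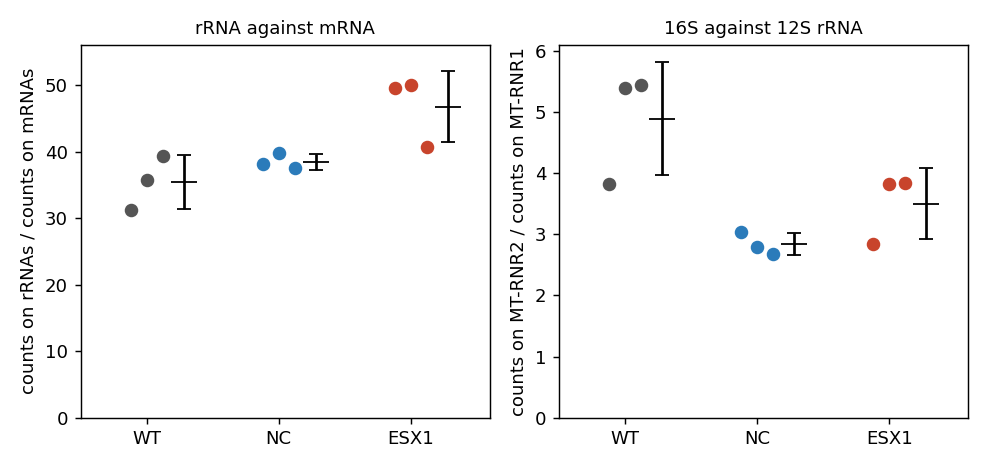
Ratios of counts in each library (linear axes from 0), of rRNA to mRNA on the left and of MT-RNR2 to MT-RNR1 on the right. Points are libraries, and bars are the mean ± SD (n = 3). The 3 ESX1 libraries lie highest on the left, between 40.7 and 50.1, and the 3 NC libraries lie low on the right, between 2.68 and 3.03.

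The order of the groups differed between the rRNAs. MT-RNR2 (ENSG00000210082.2, chrM:1671-3229, plus strand) is the RNA of the large mitochondrial ribosomal subunit. Its normalized CPM were 146244, 152519 and 167880 in WT, 106537, 98212 and 96263 in NC, and 145852, 146403 and 143383 in ESX1. The NC libraries were all below those of WT and of ESX1. The log2 fold change was -0.63 in NC against WT (standard error 0.0496, adjusted p = 1.58e-06, quasi-likelihood test of edgeR, with all tested genes in the Benjamini-Hochberg correction) and 0.53 in ESX1 against NC (standard error 0.0496, adjusted p = 7.12e-06, edgeR). ESX1 against WT gave -0.10 (adjusted p = 0.146, edgeR), and -0.15 without WT replicate 1 (adjusted p = 0.0212, edgeR).

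MT-RNR1 (ENSG00000211459.2, chrM:648-1601, plus strand), the RNA of the small subunit, had 38294, 28265 and 30805 normalized CPM in WT, 35139, 35071 and 35978 in NC, and 51395, 38234 and 37377 in ESX1. It was higher in ESX1 than in WT by 0.38 on the log2 scale (standard error 0.106, adjusted p = 0.0119, edgeR), although its lowest ESX1 library lay below the highest WT library. That call rested on single libraries, since the change was 0.22 without ESX1 replicate 1 (adjusted p = 0.0746, edgeR) and 0.28 without WT replicate 2 (adjusted p = 0.088, edgeR). With limma on the authors' log2 values the adjusted p was 0.0884. MT-RNR1 changed by 0.26 in ESX1 against NC (adjusted p = 0.223, edgeR) and by 0.13 in NC against WT (adjusted p = 0.451, edgeR).

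The ratio of MT-RNR2 to MT-RNR1 counts was 3.82, 5.40 and 5.45 in WT, 3.03, 2.80 and 2.68 in NC, and 2.84, 3.83 and 3.84 in ESX1. The log2 ratio of MT-RNR1 to MT-RNR2 was 0.623 higher in both transfected groups together than in WT (exact permutation test, two-sided, p = 0.0357, adjusted p = 0.182). Taken singly, it was 0.769 higher in NC (exact permutation p = 0.1) and 0.477 higher in ESX1 (exact permutation p = 0.3) than in WT. The ranges of ESX1 and WT overlapped. When the libraries were instead scaled to their counts on mitochondrial mRNA, MT-RNR1 was higher against WT in ESX1 (0.80) and in NC (0.73, adjusted p = 8.46e-05, edgeR). On that scale MT-RNR2 was 0.30 higher in ESX1 than in WT (adjusted p = 0.0291, edgeR), 0.35 higher than in NC (adjusted p = 0.0578, edgeR), and differed by -0.05 between NC and WT (adjusted p = 0.734, edgeR). The median over all genes moved by 0.417, -0.182 and 0.601 in ESX1 against WT, ESX1 against NC and NC against WT under this scaling.

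Of the 37 genes, 19 had enough counts to be tested, namely both rRNAs, 12 mRNAs and 5 tRNAs. In NC against WT, 9 of the 19 were downregulated at an adjusted p below 0.05 and 0 were upregulated, and 4 of the 9 fell at least 2-fold. Among all tested genes 17.1% were called in this comparison, 10.3% as lower, and 5.27% also changed at least 2-fold. The median log2 fold change of the 19 was -0.63, against 0.0085 for all genes, and 18 of 19 values were negative. The groups did not overlap for 12 of the 19, against 37.6% of all genes. In ESX1 against WT, 6 of 19 were called, with MT-RNR1 higher and MT-CO1, MT-CO3, MT-ND3, MT-TN and MT-TC lower. That share, 31.6%, stood beside 28.8% of all tested genes, of which 12.9% were higher and 15.8% lower. MT-ND3 alone also passed 2-fold, as did 11.5% of all genes, and the groups did not overlap for 5 of the 19, against 40.3% of all genes. In ESX1 against NC, MT-RNR2 and MT-TC were upregulated, 2 of 19, where 4.25% of all genes were called, 1.88% as higher. Neither reached 2-fold, which 1.78% of all genes did, and the groups did not overlap for 7 of the 19, against 22.6% of all genes. All 19 values were positive there, with a median of 0.39 and a range from 0.13 to 0.90. Without ESX1 replicate 3, the shallowest library, 5 of them turned negative (MT-ATP6 -0.05, MT-ND3 -0.16, MT-ND4 -0.009, MT-ND5 -0.08 and MT-ND6 -0.65). These comparisons share their libraries, so their values are given side by side and are not independent.

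**Figure D3:**
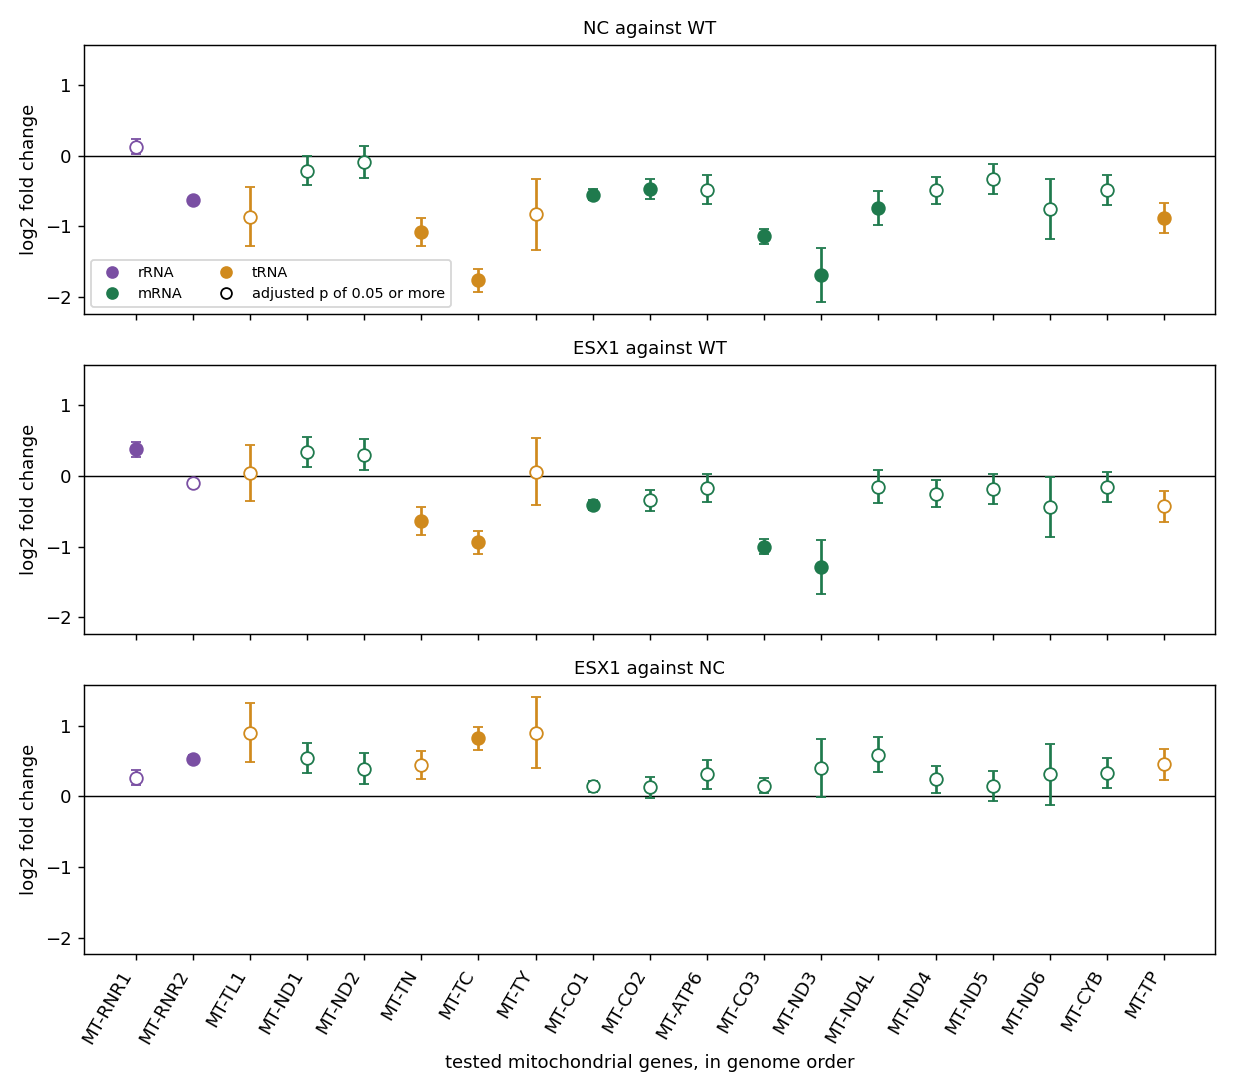
Log2 fold changes with standard errors for the 19 tested mitochondrial genes in genome order, in NC against WT, ESX1 against WT and ESX1 against NC. Filled points have an adjusted p below 0.05 (edgeR, over all tested genes), and colours mark rRNA, mRNA and tRNA. MT-TC, MT-CO3 and MT-ND3 lie lowest in the upper panel at -1.76, -1.14 and -1.68, and all points of the lowest panel are above 0.

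The mRNAs of cytochrome c oxidase, complex IV, made up 67.4% to 81.4% of mitochondrial mRNA counts. MT-CO1 (ENSG00000198804.2, chrM:5904-7445, plus strand) encodes its catalytic subunit and was ranked 11 among all genes. It had 2934, 2667 and 2854 normalized CPM in WT, 1923, 1894 and 1949 in NC, and 2119, 2103 and 2137 in ESX1. Both transfected groups lay below every WT library, with NC lowest. It fell by 0.55 on the log2 scale in NC against WT (standard error 0.0762, adjusted p = 0.000142, edgeR) and by 0.41 in ESX1 against WT (standard error 0.0761, adjusted p = 0.000644, edgeR). ESX1 against NC gave 0.14 (adjusted p = 0.395, edgeR), although the ESX1 libraries were all higher.

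MT-CO3 (ENSG00000198938.2, chrM:9207-9990, plus strand), a further core subunit, had 912, 1025 and 903 normalized CPM in WT, 405, 417 and 463 in NC, and 432, 477 and 514 in ESX1. Every transfected library lay below every WT library. The log2 fold change was -1.14 in NC against WT (standard error 0.104, adjusted p = 4.25e-06, edgeR) and -1.0 in ESX1 against WT (standard error 0.104, adjusted p = 2.32e-06, edgeR), and 0.15 in ESX1 against NC (adjusted p = 0.542, edgeR). MT-CO2 (ENSG00000198712.1, chrM:7586-8269, plus strand), the subunit that receives electrons from cytochrome c, had 455, 353 and 364 in WT, 349, 243 and 253 in NC, and 325, 260 and 339 in ESX1. It fell by 0.47 in NC against WT (adjusted p = 0.0359, edgeR), a call that was lost without NC replicate 2 (-0.36, adjusted p = 0.189), without NC replicate 3 (-0.39, adjusted p = 0.176) or without WT replicate 1 (-0.35, adjusted p = 0.115), and also with limma, upper-quartile factors or at least 10 counts required in every library. In ESX1 it differed by -0.34 from WT (adjusted p = 0.0914, edgeR) and by 0.13 from NC (adjusted p = 0.749, edgeR).

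Complex I, NADH dehydrogenase, has 7 mitochondrially encoded subunits, and they took 13.7% to 25.4% of mitochondrial mRNA counts. MT-ND3 (ENSG00000198840.2, chrM:10059-10404, plus strand) lies next to MT-CO3, with MT-TG between them. It had 8.41, 17.3 and 12.4 normalized CPM in WT, 2.70, 4.39 and 4.68 in NC, and 2.43, 4.53 and 9.42 in ESX1. The NC libraries were all below WT, while the highest ESX1 library exceeded the lowest WT library. The log2 fold change was -1.68 in NC against WT (standard error 0.383, adjusted p = 0.00597, edgeR) and -1.29 in ESX1 against WT (standard error 0.382, adjusted p = 0.0176, edgeR). The ESX1 call was lost without ESX1 replicate 1 (-0.91), ESX1 replicate 2 (-1.20) or WT replicate 2 (-1.01), with edgeR adjusted p of 0.0712, 0.0522 and 0.0949. In ESX1 against NC the value was 0.40 (adjusted p = 0.71, edgeR), and -0.16 without ESX1 replicate 3.

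The ends of the mRNAs that fell most are shown because 6 of the 13 mRNA genes, these 2 among them, have a length that is not a multiple of 3. Such genes end in part of a stop codon, which is known to be completed by the poly(A) tail. The last 24 bases are at chrM:9967-9990 and chrM:10381-10404 (plus strand), with the partial codon in capitals, and those of MT-CO1 at chrM:7422-7445 end in a full codon.
MT-CO3: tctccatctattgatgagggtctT
MT-ND3: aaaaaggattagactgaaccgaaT
MT-CO1: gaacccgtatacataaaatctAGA
MT-ND1, MT-ND2, MT-ND4 and MT-CYB have a partial last codon as well and were not called in any of the 3 comparisons.

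MT-ND4L (ENSG00000212907.2, chrM:10470-10766, plus strand), which shares its RNA with MT-ND4, had 88.0, 57.9 and 58.3 normalized CPM in WT, 58.2, 32.4 and 31.8 in NC, and 66.7, 41.4 and 77.0 in ESX1. Its log2 value in NC minus WT was -0.74 (standard error 0.24, adjusted p = 0.0424, edgeR). That call was lost with DESeq2, limma, upper-quartile factors or at least 10 counts required in every library (adjusted p from 0.0568 to 0.148). It was lost as well without NC replicate 2 (-0.58), NC replicate 3 (-0.58), WT replicate 1 (-0.52) or WT replicate 2 (-0.85), with edgeR adjusted p from 0.0552 to 0.191. ESX1 gave -0.15 against WT and 0.59 against NC (adjusted p = 0.677 and 0.222, edgeR), and the value against NC passed without NC replicate 1 (0.94, adjusted p = 0.0459, edgeR). MT-ND4 (ENSG00000198886.2, chrM:10760-12137, plus strand) had 361, 240 and 244 in WT, 232, 169 and 199 in NC, and 220, 174 and 316 in ESX1. Its log2 fold changes were -0.49 in NC against WT, -0.25 in ESX1 against WT and 0.24 in ESX1 against NC (adjusted p = 0.0886, 0.35 and 0.61, edgeR). NC against WT passed without ESX1 replicate 2 (-0.50, adjusted p = 0.0489, edgeR), which enters through the shared estimate of the spread.

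For MT-ND1, MT-ND2 and MT-ND5, also of complex I, the ranges of the 3 groups overlapped. MT-ND1 (ENSG00000198888.2, chrM:3307-4262, plus strand) had 223, 149 and 133 normalized CPM in WT, 171, 131 and 135 in NC, and 200, 149 and 289 in ESX1. MT-ND2 (ENSG00000198763.3, chrM:4470-5511, plus strand) had 135, 67.9 and 65.9 in WT, 90.6, 77.2 and 84.6 in NC, and 107, 84.8 and 140 in ESX1. MT-ND5 (ENSG00000198786.2, chrM:12337-14148, plus strand) had 341, 214 and 174 in WT, 222, 176 and 181 in NC, and 202, 159 and 283 in ESX1. For all 3 genes, WT replicate 1 was the highest WT library and ESX1 replicate 3 the highest ESX1 library. Their log2 fold changes in NC against WT were -0.21, -0.09 and -0.33, and in ESX1 against NC 0.54, 0.39 and 0.15, and none was called in a comparison of all libraries. Without WT replicate 1, MT-ND1 and MT-ND2 were higher in ESX1 than in WT by 0.59 and 0.71 (adjusted p = 0.0383 and 0.0041, edgeR), against 0.34 and 0.30 with it. MT-ND1 also passed in ESX1 against NC without ESX1 replicate 2 (0.74, adjusted p = 0.0368, edgeR).

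MT-ND6 (ENSG00000198695.2, chrM:14149-14673, minus strand) is the only mRNA of the light strand. It had 12, 8.75 and 7.10 normalized CPM in WT, 4.77, 6.11 and 5.70 in NC, and 3.35, 3.62 and 15.0 in ESX1. NC lay below WT in every library, while ESX1 held both the lowest values and the highest. The log2 fold change was -0.44 in ESX1 against WT (adjusted p = 0.469, edgeR) and -1.38 without ESX1 replicate 3 (adjusted p = 0.00476, edgeR). NC against WT gave -0.75 (adjusted p = 0.237, edgeR), and ESX1 against NC gave 0.31 (adjusted p = 0.807, edgeR), or -0.65 without ESX1 replicate 3. The counting did not use the strand, so RNA transcribed from the opposite strand at this place cannot be told apart from MT-ND6.

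MT-CYB (ENSG00000198727.2, chrM:14747-15887, plus strand), cytochrome b of complex III, had 365, 183 and 181 normalized CPM in WT, 195, 158 and 171 in NC, and 254, 177 and 226 in ESX1. MT-ATP6 (ENSG00000198899.2, chrM:8527-9207, plus strand), a subunit of the proton channel of ATP synthase, had 79.8, 67.8 and 62.7 in WT, 57.0, 44.1 and 49.7 in NC, and 45.3, 51.2 and 92.2 in ESX1. In NC against WT both gave -0.48 on the log2 scale (adjusted p = 0.132 and 0.111, edgeR). That value of MT-CYB was -0.06 without WT replicate 1 (adjusted p = 0.803, edgeR) and -0.65 without WT replicate 3 (adjusted p = 0.0479, edgeR), and that of MT-ATP6 passed without ESX1 replicate 3 (-0.47, adjusted p = 0.0289, edgeR). MT-CYB gave -0.15 and MT-ATP6 -0.17 in ESX1 against WT (adjusted p = 0.637 and 0.557, edgeR), and MT-CYB gave 0.26 there without WT replicate 1 (adjusted p = 0.198, edgeR). Against NC they gave 0.33 and 0.31 (adjusted p = 0.497 and 0.509, edgeR). Without ESX1 replicate 3, MT-ATP6 passed in ESX1 against WT (-0.51, adjusted p = 0.0275, edgeR). MT-ATP8 (ENSG00000228253.1, chrM:8366-8572, plus strand), the other subunit, was not tested in the fit of all libraries. It had 3, 10 and 13 counts in WT, 0, 1 and 8 in NC, and 1, 1 and 2 in ESX1.

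Levels between genes were compared as normalized CPM per kb of gene length. The full length was used, although read pairs that touched 2 genes or mapped to several places went uncounted. Values of short genes and of genes with nuclear copies may therefore be too low, and the effect on the order was not tested. In WT the mean was 1828 for MT-CO1, 1207 for MT-CO3 and 571 for MT-CO2, and the ranges of these neighbours did not overlap. Next came MT-ND4L at 229, MT-CYB at 213, MT-ND4 at 204, MT-ND1 at 176, MT-ND5 at 134, MT-ATP6 at 103 and MT-ND2 at 86.0. Each of these 7 overlapped its neighbour in the order, so their ranks are not told apart by these libraries. MT-ND3 at 36.8, MT-ND6 at 17.7 and MT-ATP8 at 5.06 were lowest. The rRNAs stood at 99774 for MT-RNR2 and 34020 for MT-RNR1. MT-CO1, MT-CO3 and MT-CO2 kept ranks 1, 2 and 3 in NC (1246, 546 and 412) and in ESX1 (1375, 605 and 450), and MT-ND3, MT-ND6 and MT-ATP8 kept ranks 11, 12 and 13. The ranges of MT-ND3 and MT-ND6 overlapped in NC and in ESX1, so their order is told apart in WT only.

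**Figure D4:**
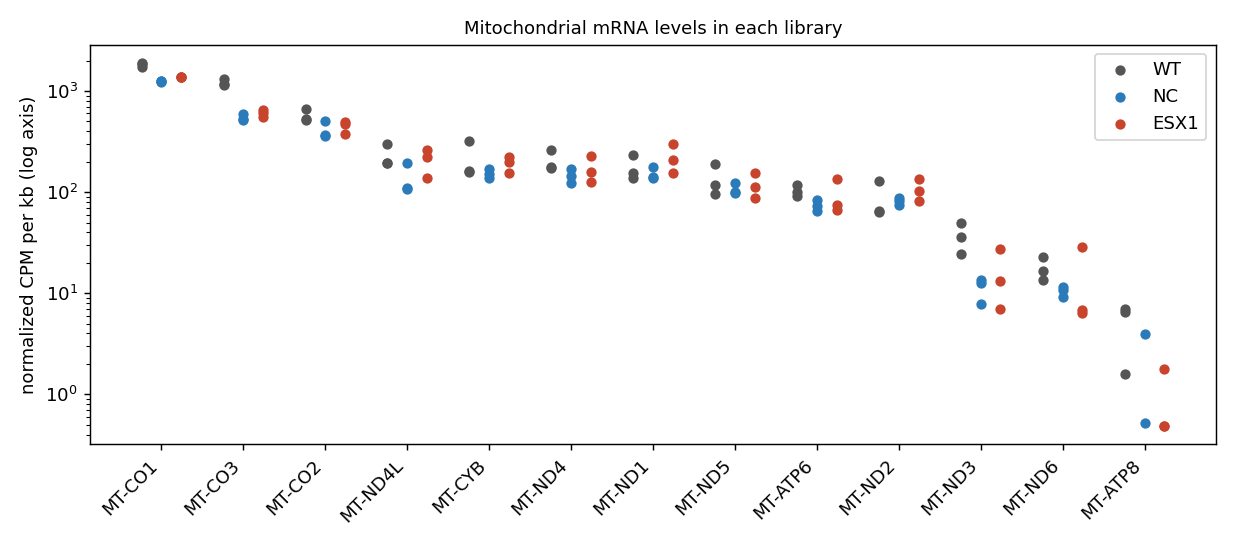
Normalized CPM per kb (log axis) of the 13 mitochondrial mRNAs in each library, ordered by the mean in WT. Each point is a library, and MT-ATP8 in the first NC library, at 0, is not drawn. WT lies above NC and ESX1 for MT-CO1 and MT-CO3, and the points of the groups mix for MT-ND1, MT-ND2 and MT-ND5.

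The tRNAs had 6204 of the 80025985 counts of all libraries. Of these, 96.1% lay on the 8 light-strand tRNAs, and 97.0% on MT-TC, MT-TN, MT-TP and MT-TL1. The counting did not use the strand, so RNA transcribed from the opposite strand cannot be told apart from these tRNAs. This limit also holds for the changes of MT-TC, MT-TN and MT-TP given below. For 7 tRNAs the count was 0 in every library (MT-TF, MT-TA, MT-TG, MT-TR, MT-TS2, MT-TL2 and MT-TE). At 95% confidence a count of 0 allows a mean of up to 3 counts, which is 0.282 to 0.576 CPM depending on the library. That bound covers pairs that could be counted and not the level of the RNA. A further 10 had at most 11 counts in a library and were not tested. A tRNA is shorter than a read, and pairs that reach a neighbouring gene were not assigned under the counting rule above. How many pairs that left out was not tested. Counts on a tRNA gene can come from the mature tRNA or from a longer precursor RNA that holds it. These cannot be told apart here, so a change of such counts is not shown to be a change of the mature tRNA.

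MT-TC (ENSG00000210140.1) had 54.7, 69.4 and 69.9 normalized CPM in WT, 14.8, 18.9 and 23.3 in NC, and 32.6, 35.0 and 33.1 in ESX1. The 3 groups did not overlap, and ESX1 lay between NC and WT. It fell in NC against WT by 1.76 on the log2 scale (standard error 0.164, adjusted p = 5.35e-06, edgeR) and in ESX1 against WT by 0.94 (standard error 0.159, adjusted p = 0.000294, edgeR). In ESX1 against NC it rose by 0.82 (standard error 0.165, adjusted p = 0.00711, edgeR). MT-TN (ENSG00000210135.1), its neighbour in the genome, had 29.8, 30.5 and 31.0 in WT, 14.8, 14.9 and 13.4 in NC, and 21.5, 23.8 and 12.2 in ESX1. The values of NC and ESX1 were all below WT, and the third ESX1 library was the lowest of all. Its log2 fold change was -1.08 in NC against WT (adjusted p = 0.00132, edgeR), -0.64 in ESX1 against WT (adjusted p = 0.0204, edgeR) and 0.44 in ESX1 against NC (adjusted p = 0.291, edgeR). The ESX1 against WT call was lost without ESX1 replicate 3 (-0.40, adjusted p = 0.0972) or WT replicate 2 (-0.65, adjusted p = 0.052), and without ESX1 replicate 3 the rise against NC passed (0.67, adjusted p = 0.0429).

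MT-TP (ENSG00000210196.2) lies next to the control region of the genome, away from this cluster. It had 23.8, 16.8 and 13.1 normalized CPM in WT, 9.54, 10.7 and 8.85 in NC, and 14.9, 12.8 and 12 in ESX1, with NC below the others in every library. NC minus WT was -0.88 on the log2 scale (standard error 0.218, adjusted p = 0.01, edgeR), a call that was lost without NC replicate 3 (-0.81, adjusted p = 0.0582) or WT replicate 1 (-0.62, adjusted p = 0.0516). ESX1 gave -0.43 against WT and 0.45 against NC (adjusted p = 0.15 and 0.328, edgeR). The value against WT was -0.62 without WT replicate 3 (adjusted p = 0.0445, edgeR) and -0.17 without WT replicate 1. MT-TL1 and MT-TY, at 0.509 to 4.04 normalized CPM over all libraries, were not called in any comparison.

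Many copies of mitochondrial DNA lie in the nuclear chromosomes, and read pairs that match both could be lost from the members. On GRCh37, an exact nuclear copy was found for 15.7% of the windows of 150 bases in MT-ND2, 14.5% in MT-CO1, 10.4% in MT-RNR1 and 1.1% in MT-ND1, and for 0 windows in MT-RNR2. MT-TN has an exact copy of all its 73 bases on chromosome 1, and MT-TC one of 60 of its 66 bases. The annotation lists 420 such copies as genes, and they had 9564 counts in all. The largest count was on MTRNR2L12, a copy of MT-RNR2, with 75.6, 89.9 and 69.9 normalized CPM in WT, 38.6, 28.1 and 27.5 in NC, and 55.9, 41.2 and 34.9 in ESX1. It was lower in NC (-1.32, adjusted p = 0.000102, edgeR) and in ESX1 (-0.82, adjusted p = 0.00176, edgeR) than in WT. MTATP6P1 (770 counts over all libraries) and MTCO1P12 (644 counts) came next and were not called. The part of shared sequence in the values of the members was not tested beyond this.

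Nuclear genes for mitochondrial gene expression were called in both directions. Of 54 listed factors, all tested, 7 were lower and 2 higher in NC than in WT (16.7%, median log2 fold change -0.11), 8 lower and 4 higher in ESX1 than in WT (22.2%, median -0.05), and 1 higher in ESX1 than in NC (1.85%, median 0.05). The shares of all tested genes were 17.1%, 28.8% and 4.25%. With 54 factors, the shares of the list are not read as differing from these. SLIRP, which with LRPPRC protects mitochondrial mRNAs from decay, was lower in NC (-0.93, adjusted p = 0.000102, edgeR) and in ESX1 (-0.88, adjusted p = 5.44e-05, edgeR) than in WT. TFAM, which packs mitochondrial DNA and starts its transcription, was lower in both as well (-0.80 and -0.66, adjusted p = 0.0018 and 0.00387, edgeR). TFB2M, which opens the promoter for the RNA polymerase, was the factor called in ESX1 against NC (0.56, adjusted p = 0.0447, edgeR). It had 30.3, 22.3 and 25.7 normalized CPM in NC, 35.2, 40.3 and 40.3 in ESX1, and 40.4, 31.9 and 35.7 in WT.

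TFB2M was lower in NC than in WT (-0.47, adjusted p = 0.0437, edgeR), and ESX1 against WT gave 0.10 (adjusted p = 0.677, edgeR). TFB1M, which methylates the small rRNA, was lower in ESX1 than in WT (-0.77, adjusted p = 0.00941, edgeR), with a value of -0.43 in NC against WT (adjusted p = 0.152, edgeR). MTERF3, a repressor of mitochondrial transcription, was lower than WT in NC (-0.61) and in ESX1 (-0.48), with edgeR adjusted p of 0.0109 and 0.0244. The RNA polymerase POLRMT, LRPPRC and the ribonuclease PNPT1 were not called in any comparison. POLRMT had log2 fold changes of 0.18 in NC against WT and -0.02 in ESX1 against WT.

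Most of the nuclear partners of the mitochondrial mRNAs were lower in each transfected group than in WT. Of 72 nuclear subunits of complexes I, III and IV and ATP synthase, all tested, 42 were lower and 0 higher in NC than in WT (58.3%), with a median log2 fold change of -0.61. In ESX1 against WT, 44 were lower and 0 higher (61.1%), with a median of -0.55. The calls over all genes were 17.1% and 28.8% in these comparisons. For complex IV it was 9 of 11 and for ATP synthase 12 of 15 in each comparison, while for complex I it was 16 of 37 in each. Values were negative for 63 of the 72 in NC and 65 in ESX1, and the highest was that of ATP5D of ATP synthase (0.58 and 0.54), which was not called. The lowest value was -1.34 for ATP5I, a subunit of ATP synthase, in NC against WT and -1.22 for UQCRH, a subunit of complex III, in ESX1 against WT. In ESX1 against NC, COX6A1 of complex IV was higher and UQCRC1 of complex III lower, 2 of 72 (2.78%, against 4.25% of all tested genes), and the median was 0.05.

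**Figure D5:**
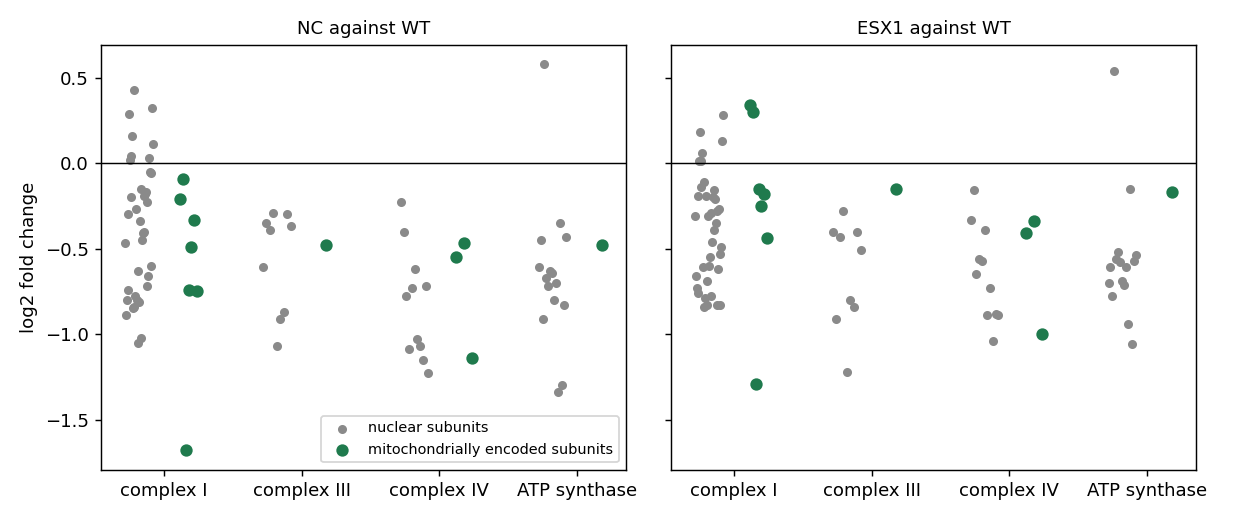
Log2 fold changes of nuclear (grey, 72 genes) and tested mitochondrially encoded (green, 12 genes) subunits by complex, in NC against WT and in ESX1 against WT. Each point is a gene. Nuclear subunits of complexes III and IV all lie below 0, and the mitochondrially encoded subunits of complex I spread from -1.68 to -0.09 in NC and from -1.29 to 0.34 in ESX1.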

How the data were processed

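RNA-seq counts of 9 TCam-2 libraries were used, grouped by the sample titles. Read pairs were aligned by the authors to GRCh38 (HISAT2 2.0.5), and gene counts were made with featureCounts, without strand (version 1.5.2 per the file headers, 1.6.5 in the submitters' processing notes), against GENCODE 26 as the header states. The deposited counts are raw. The authors also deposited log2 values normalized with DESeq2, used here in an alternative only. The tables' rows were matched in 9 of 9 libraries.

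Genes were filtered with filterByExpr, leaving 18452, and fitted with edgeR 4.0.16 in R 4.3.3 (TMM, glmQLFit over all libraries). Calls were made at an adjusted p below 0.05 (Benjamini-Hochberg over all tested genes), with changes of at least 2-fold counted beside them. Shares and ratios of each library were compared by exact permutation. The study names 3 biological replicates, and no batch is given in the labels. Alternatives were RLE and upper-quartile factors, DESeq2 1.42.0, limma 3.58.1, other filters, nuclear or mitochondrial mRNA library sizes, the 6 libraries compared alone, the replicate block and each library left out. The edgeR fit was tested on simulated data. Sequences came from GENCODE transcripts on GRCh37, matched by identifier, whose mitochondrial coordinates equal those of the count table for 37 of 37 genes. All mitochondrial genes are named or counted, tRNAs in full where called or among the 3 with the highest counts. Of the nuclear factors, the 3 largest called changes per comparison and TFAM, POLRMT, LRPPRC and PNPT1 are named. The members and lists were chosen with earlier results of these data known.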

Additional observations from a re-analysis of the deposited data

How the results depend on the processing

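Counts of called mitochondrial genes (6 in ESX1 against WT, 2 in ESX1 against NC, 9 in NC against WT) became 1, 0 and 4 when a 2-fold change was also required, and 5 in ESX1 against NC without a filter, with MT-RNR1, MT-ND1 and MT-ND4L added. With each library left out in turn, they ranged from 3 (without WT replicate 2) to 10 (without WT replicate 1), from 2 to 3, and from 6 (without NC replicate 3 or WT replicate 1) to 10. The 10 genes in ESX1 against WT without WT replicate 1 include MT-ATP8, which had too few counts to be tested in the fit of all libraries. MT-RNR2 in ESX1 against WT turned from -0.10 to 0.005 with upper-quartile factors, which moved the median of all genes by 0.108, and to 0.30 with mitochondrial mRNA library sizes. Among single genes, leaving out a library turned values that were not called: in ESX1 against WT, MT-TL1 ranged from -0.20 to 0.39, MT-TY from -0.14 to 0.20, MT-ATP6 from -0.51 to 0.01, MT-ND4L from -0.31 to 0.07, MT-ND5 from -0.40 to 0.13 and MT-CYB from -0.33 to 0.26. In ESX1 against NC, without ESX1 replicate 3, MT-ATP6, MT-ND3, MT-ND4, MT-ND5 and MT-ND6 fell to -0.05, -0.16, -0.009, -0.08 and -0.65, with highest values of 0.49, 0.77, 0.42, 0.32 and 0.67. In NC against WT, MT-ND1 ranged from -0.36 to 0.05 and MT-ND2 from -0.28 to 0.33. The log2 tRNA to mRNA ratio of ESX1 against both controls was 0.0505, and -0.168 as a median over genes. The cause of these changes was not tested.

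With each library left out, the share of both transfected groups against WT ranged from -1.27 to -0.185 points for all mitochondrial genes and from -1.16 to -0.0866 for rRNA, and the tRNA share of ESX1 against both controls from -0.00138 to -4.16e-05. With the replicate number as a block, 7, 3 and 11 genes were called, the added ones being MT-CO2 in ESX1 against WT, MT-ND4L in ESX1 against NC, and MT-ND4 and MT-CYB in NC against WT. Same-numbered libraries had correlations of their deviations from -0.0296 to 0.193 across genes. Some libraries correlated best with their own number and others did not. Whether same-numbered libraries share a batch was not tested. These numbers are those of the sample titles, and 2 ESX1 libraries carry different numbers in the column names of the tables. Low counts limit MT-ATP8 and the tRNAs, and the permutation tests are limited by 3 libraries a group.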

Other observations

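The following 2 ratios were chosen after their values were seen and are given without a test. The log2 ratio of MT-CO3 to MT-CO1 counts was -1.69, -1.38 and -1.66 in WT, -2.25, -2.18 and -2.07 in NC, and -2.29, -2.14 and -2.05 in ESX1, so the WT libraries stood above the other 6. For MT-TC to MT-CO1 it was -5.75, -5.26 and -5.35 in WT, -7.02, -6.65 and -6.39 in NC, and -6.02, -5.91 and -6.01 in ESX1, and the 3 groups did not overlap.

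The composition of the mRNA differed between libraries of a group. Complex I mRNAs took 19.8%, 14.9% and 13.7% of mitochondrial mRNA counts in WT, 21.1%, 17.8% and 18.2% in NC, and 20.2%, 16.7% and 25.4% in ESX1. The highest value belonged to the shallowest library, with 5212804 counts. The part of depth in it was not tested.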
